A study of Rattus norvegicus with 12 samples.

Results

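The genes described here code for the structural proteins of the extracellular matrix and for the enzymes and inhibitors that turn it over. They were taken by symbol alone, from the array's annotation: numbered collagen chains (Col), laminin chains (Lama, Lamb, Lamc), matrix metalloproteinases (Mmp), tissue inhibitors of metalloproteinases (Timp) and ADAMTS proteinases, plus Fn1, Lox, Dcn, Lum, Bgn, Fbn1, Matn1, Matn2, Nid1, Postn and Sparc. The rule found 95 genes, on 134 probe sets, of 14218 genes that have a probe set with a single symbol. Of the 95, 64 had 1 probe set and 31 had several, in which case the probe set with the highest mean signal stood for the gene. A total of 60 genes had a mean log2 signal above the filter (the 40th percentile of all probe sets), and 35 lay below it. The filter used the mean over all 12 arrays, and counts over the 60 are not counts over all 95.

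Kidney RNA from 12 male Zucker rats was hybridised to 12 one-colour expression arrays, 3 in each of 4 groups. Lean rats and obese rats received either ground chow, called the control diet, or the same chow with rosiglitazone at 3 mg per kg body weight for 12 weeks, so that every rat ate the chow and only the drug groups had the agent. In obese animals of this strain the receptor for leptin is mutated, and the samples are described as a diabetes model. Rosiglitazone is a thiazolidinedione that activates the nuclear receptor PPAR gamma. The labels used here give neither age nor the region of kidney taken. The receptor defect is present in every tissue, and the lean and obese animals differ in body weight, metabolism and genotype together, so that these cannot be told apart. In such whole-tissue RNA, fewer cells of a type and less RNA per cell cannot be told apart either.

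In the kidney, basement membranes under the tubules and in the glomerular filter are built from networks of type IV collagen and laminin that nidogen links, while fibrillar collagens of types I and III, with fibronectin and small proteoglycans, fill the interstitium. Metalloproteinases and ADAMTS enzymes cut these proteins, and the TIMPs block metalloproteinases. Accumulation of matrix is a known feature of chronic kidney disease, in obese Zucker rats among other models. RNA levels measure neither the amount of matrix protein nor enzyme activity.

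Upstream regions of 4 members are shown because these are the genes called higher in obese rats over both diets that have a window in the RefSeq table (build GRCr8, 250 bases before to 50 after the start, 5′ to 3′ on the gene's strand). Windows were found for 68 of the 95 genes. Capitals mark matches on either strand to TATAAA, known as a core promoter motif, to CCAAT, bound by NF-Y, to GGGCGG, bound by Sp1, or to TGANTCA, bound by AP-1 (N is any base). Overlaps between motifs were allowed. Of all 33469 windows, 14.2% held TATAAA, 37.5% CCAAT, 33.1% GGGCGG and 7.3% TGANTCA. Col4a1 (chr16:84885347-84885646, plus strand) lies head to head with Col4a2: their starts are 77 bases apart on opposite strands, and the 176 bases from 84885471 to 84885646 belong to both windows. The windows of Col5a2 (chr9:55090102-55090401, minus strand), Sparc (chr10:40038767-40039066, minus strand) and Timp1 (chrX:3771073-3771372, minus strand) follow. The Timp1 window lies inside the gene's listed span (3766509 to 3772578), so its start is not the outermost one of the gene.
Col4a1: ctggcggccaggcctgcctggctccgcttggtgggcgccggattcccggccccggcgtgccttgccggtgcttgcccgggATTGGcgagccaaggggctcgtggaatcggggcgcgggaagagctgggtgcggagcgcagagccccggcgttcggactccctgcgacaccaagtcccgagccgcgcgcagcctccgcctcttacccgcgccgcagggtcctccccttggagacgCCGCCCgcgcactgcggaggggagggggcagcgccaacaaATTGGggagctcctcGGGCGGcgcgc
Col5a2: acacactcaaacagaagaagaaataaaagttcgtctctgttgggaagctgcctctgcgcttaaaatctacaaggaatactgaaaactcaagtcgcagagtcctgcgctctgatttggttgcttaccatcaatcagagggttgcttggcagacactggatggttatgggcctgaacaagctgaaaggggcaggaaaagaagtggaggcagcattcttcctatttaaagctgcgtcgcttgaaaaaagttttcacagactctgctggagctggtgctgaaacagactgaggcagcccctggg
Sparc: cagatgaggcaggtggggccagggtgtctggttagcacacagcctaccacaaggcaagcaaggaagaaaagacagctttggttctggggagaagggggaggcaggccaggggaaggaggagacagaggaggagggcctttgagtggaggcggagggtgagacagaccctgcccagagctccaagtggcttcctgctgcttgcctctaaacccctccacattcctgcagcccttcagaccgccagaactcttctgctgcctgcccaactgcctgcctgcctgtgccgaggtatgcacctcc
Timp1: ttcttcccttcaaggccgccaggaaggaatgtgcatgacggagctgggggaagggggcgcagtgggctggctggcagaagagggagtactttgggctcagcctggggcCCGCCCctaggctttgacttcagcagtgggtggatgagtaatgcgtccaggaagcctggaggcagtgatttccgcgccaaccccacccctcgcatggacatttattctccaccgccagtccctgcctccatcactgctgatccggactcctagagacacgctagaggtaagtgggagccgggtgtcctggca
The Col4a1 window held 2 CCAAT and 2 GGGCGG matches, that of Timp1 held 1 GGGCGG match, and those of Col5a2 and Sparc held none of these letters. A match is a description of the letters, and an absent match says only that they are not in these 300 bases.

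The arrays had been scaled to a common level, with a 2% trimmed mean of about 500.1 signal units on each. All 11 kidney-defining markers, such as Umod and Aqp2, were above the filter, with summed signals of 111970.0 to 131045 in lean control rats and 96309.9 to 112338 in obese control rats. Over both diets 2 of them were higher and 6 lower in obese rats, with a median log2 difference of -0.27, and on rosiglitazone 4 were lower. Their part in the matrix gene differences was not tested. A spiked bacteriophage control, cre, split the arrays into 5 with higher and 7 with lower signal. The higher class held lean control 1 and 2, lean rosiglitazone 1 and 2 and obese control 1, so that all obese rosiglitazone arrays were in the lower class. Labels do not say whether this reflects a hybridisation batch, and its part in the results below was not tested beyond the values given with and without it. In the main fit each p-value rests on a spread pooled over the 4 groups of 3 rats, also where a comparison leaves some groups out. The number of arrays limits the precision.

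Matrix genes differed between obese and lean kidneys in a minority of cases, with matrilins, Timp1 and several interstitial matrix genes higher in obese rats. Averaged over both diets, 10 of the 60 genes passed limma's test at an adjusted p under 0.05, 8 higher and 2 lower in obese rats, or 16.7%. Over all 18625 probe sets tested, 14.3% passed (7.69% higher and 6.62% lower), so the share was near the background and is no result about matrix genes as a group. The 8 higher genes were Matn1, Matn2, Timp1, Adamts8, Col5a2, Fn1, Sparc and Col4a1, and the 2 lower ones were Mmp24 and Adamts5. The median log2 difference of the 60 genes was 0.20, against 0.03 over all probe sets tested, and 50 of the 60 differences were above 0, as were 10195 of the 18625 probe sets. With the cre class as a covariate the median of the 60 was 0.07 with 43 above 0, and within the lower cre class it was 0.13 with 40 above 0.

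**Figure D1:**
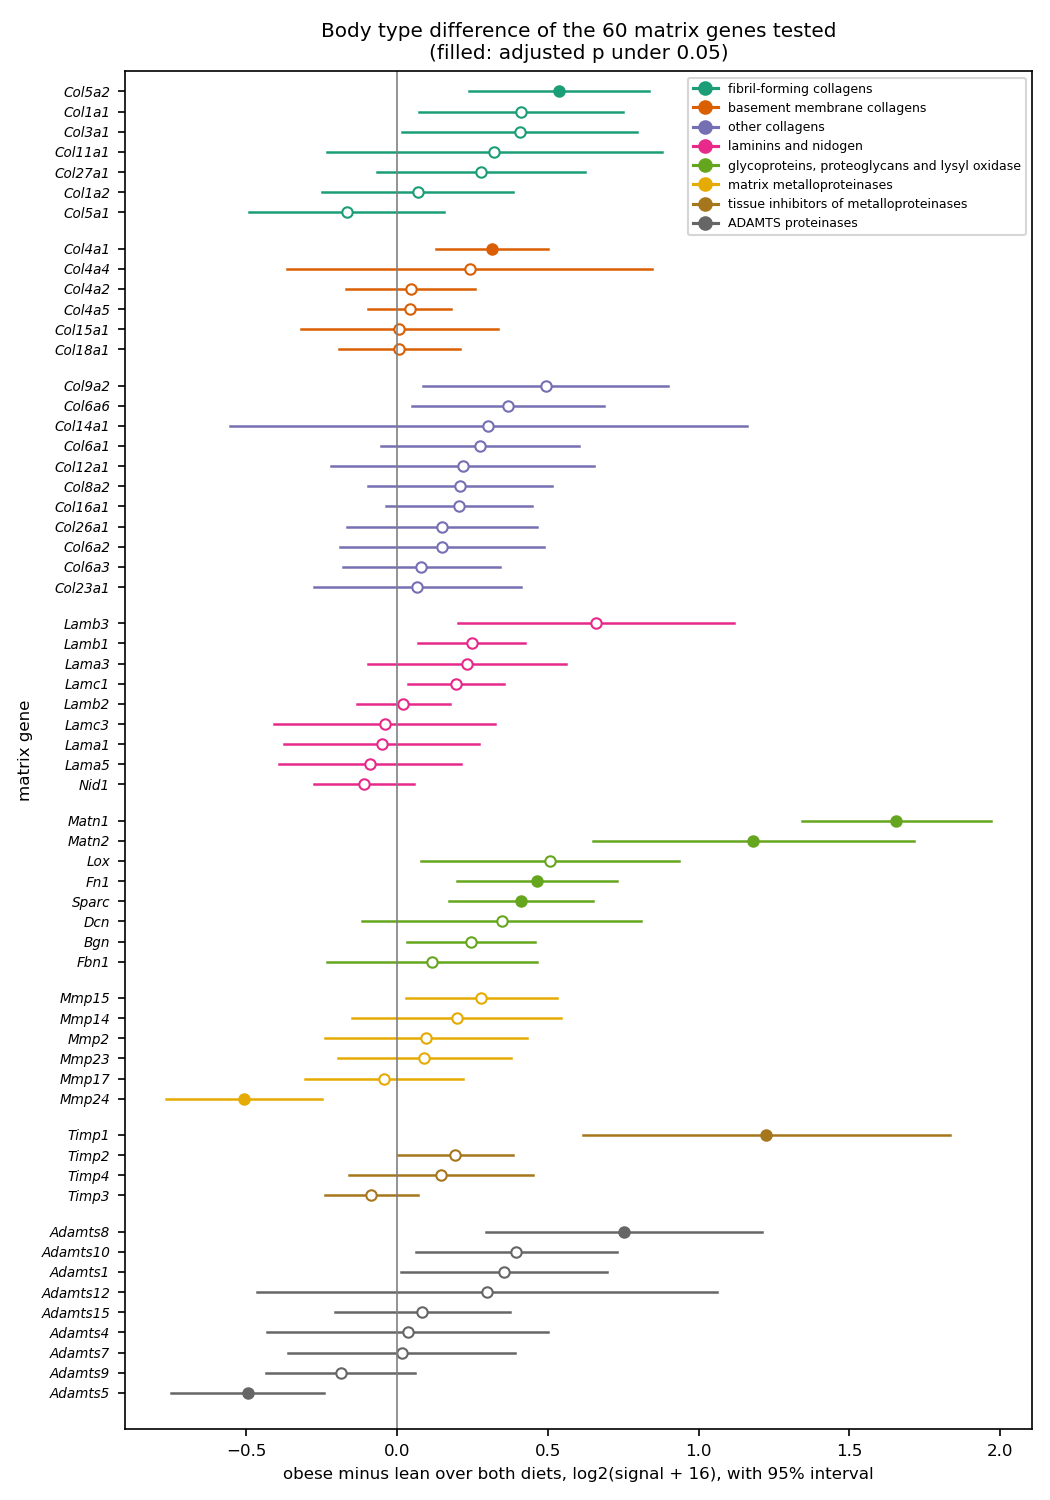
Obese minus lean difference over both diets for the 60 matrix genes tested, on the log2(signal + 16) scale, one row per gene and coloured by role; lines are 95% intervals from limma and filled points had an adjusted p under 0.05. Most points lie right of 0, Matn1 lies farthest at 1.66, and Mmp24 (-0.51) and Adamts5 (-0.49) are the filled points left of 0.

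On the control diet alone, 3 of 60 genes passed, all higher in obese rats (Matn1, Matn2 and Col4a1), where 4.74% of all probe sets passed (2.15% higher and 2.58% lower). On rosiglitazone, 4 of 60 passed: Matn1 and Timp1 were higher, and Adamts5 and Mmp24 lower, where 5% of all probe sets passed (2.41% higher and 2.6% lower). Groups did not overlap for 11 genes higher and 4 lower in obese rats on the control diet (14.4% and 11.2% of all probe sets), for 11 and 3 on rosiglitazone (13% and 10.4%), and on both diets for 2 higher and 1 lower (5.5% and 4.45%). These comparisons use different arrays. Of the 60 genes, 36 were above 0 on both diets and 7 below 0 on both, with a Pearson correlation of 0.61 and a Spearman correlation of 0.39 across genes, which are not independent replicates.

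**Figure D2:**
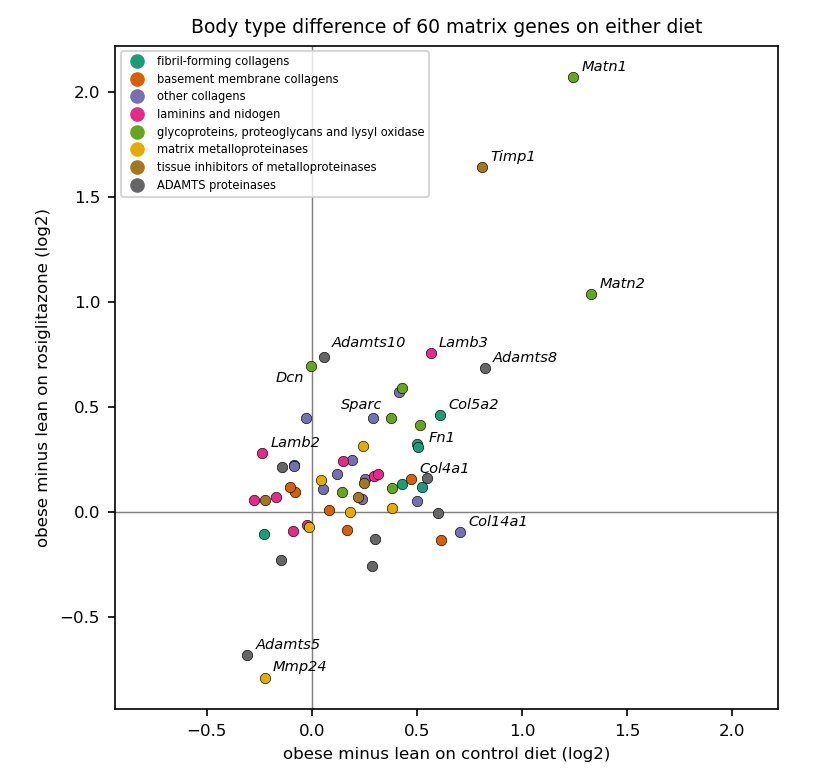
Obese minus lean log2 difference of each of the 60 matrix genes on the control diet (x axis) and on rosiglitazone (y axis), coloured by role. Matn1, Timp1 and Matn2 stand at the upper right, with differences of 1.24 and 2.07, 0.81 and 1.64, and 1.33 and 1.04, and Adamts5 and Mmp24 at the lower left.

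Among the glycoproteins, proteoglycans and lysyl oxidase, 4 of 8 measured genes were higher in obese rats over both diets, where 7.69% of all probe sets were. This is a count of few genes, and the group was not tested as a set. Matn1 signals were 569.8, 763 and 605 in lean rats on the control diet and 614, 905 and 433 in lean rats on rosiglitazone, against 1352, 1783 and 1509 in obese rats on the control diet and 2917, 2574 and 2524 in obese rats on rosiglitazone. Every obese array was above every lean array on either diet. Matn1 codes for matrilin 1, an adaptor protein best known from cartilage. Its difference was 1.24 (SE 0.21, adjusted p = 0.0044) on the control diet, 2.07 (SE 0.21, adjusted p = 0.000118) on rosiglitazone and 1.66 (SE 0.15, adjusted p = 9.74e-06) over both. Within the higher cre class the control-diet difference of Matn1 was 1.02, adjusted p = 0.273. Matn2 read 197, 149 and 272 (lean, control diet), 364, 159 and 97.6 (lean, rosiglitazone), 481, 625 and 488 (obese, control diet) and 336, 347 and 493 (obese, rosiglitazone). The obese arrays were above the lean ones on the control diet, while on rosiglitazone lean array 1 lay among the obese ones. Matn2 codes for matrilin 2, which joins matrix networks in many tissues. The difference was 1.18 (SE 0.25, adjusted p = 0.00642) over both diets. On the control diet it was 1.33 (SE 0.35, adjusted p = 0.0459), a call that did not hold without lean control 1, lean control 2, lean rosiglitazone 2, obese control 1, obese control 2, obese control 3, obese rosiglitazone 1, obese rosiglitazone 2 or obese rosiglitazone 3 (1.13 to 1.39, adjusted p = 0.0544 to 0.17), nor with quantile normalization (1.28, adjusted p = 0.0701) or median centring (1.28, adjusted p = 0.0768). It was lost too with an offset of 1 (1.40, adjusted p = 0.0527), with no filter (1.33, adjusted p = 0.0647), with plain eBayes settings, that is limma's eBayes step without its trend and robust options (1.33, adjusted p = 0.0734) and with the replicate number as a block (1.33, adjusted p = 0.0717). Nor did this Matn2 call hold within either cre class, where 1 body type has a single control-diet array.

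Fibronectin, which cells bind through integrins and lay down early in new matrix, was also higher. Fn1 signals were 1294, 1299 and 1637 in lean rats on the control diet and 2172, 1270.2 and 1466 in lean rats on rosiglitazone, against 1772, 2248 and 2039 in obese rats on the control diet and 2477, 1928 and 2018 in obese rats on rosiglitazone. The groups did not overlap on the control diet, whereas on rosiglitazone lean array 1 was above 2 of the obese arrays. The difference was 0.46 (SE 0.12, adjusted p = 0.0224) over both diets. It was 0.39, adjusted p = 0.0976 with the cre class as a covariate, and the call was lost without lean control 1, lean control 2, obese control 2, obese control 3 or obese rosiglitazone 1 (0.41 to 0.46, adjusted p = 0.0503 to 0.0592). Sparc read 1561, 1850.2 and 2171 (lean, control diet), 2075, 1451 and 1856 (lean, rosiglitazone), 1968, 2846 and 2456 (obese, control diet) and 2317, 2306 and 2675 (obese, rosiglitazone). The body types overlapped on the control diet and not on rosiglitazone. Sparc codes for osteonectin, a collagen-binding protein of remodelling tissue, and differed by 0.41 (SE 0.11, adjusted p = 0.0241). A further Sparc probe set gave 0.65 (SE 0.13, adjusted p = 0.00516). With the cre class as a covariate the Sparc difference was 0.27, adjusted p = 0.142, and the call was lost without lean control 1, lean rosiglitazone 2, obese control 2, obese control 3 or obese rosiglitazone 3 (0.34 to 0.40, adjusted p = 0.0549 to 0.0655), and with plain eBayes settings (0.41, adjusted p = 0.0516).

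Decorin, a proteoglycan that binds collagen fibrils, did not pass. Dcn read 1409.5, 1739.9 and 888 (lean, control diet), 1227, 1437 and 746 (lean, rosiglitazone), 948, 1793 and 1273 (obese, control diet) and 1932, 2192 and 1347 (obese, rosiglitazone). Lean and obese rats overlapped on either diet, and the difference over both was 0.35 (95% interval -0.12 to 0.81, adjusted p = 0.322). On rosiglitazone it was 0.70 (SE 0.30, adjusted p = 0.222), and it passed there with the replicate number as a block (0.70, adjusted p = 0.0441). Over both diets the Dcn difference within the lower cre class was 1.00, with 1 lean array per diet. For the others the differences over both diets were 0.51 (SE 0.20, adjusted p = 0.108) for Lox, which crosslinks collagen, 0.25 (SE 0.10, adjusted p = 0.115) for the proteoglycan Bgn and 0.12 (SE 0.16, adjusted p = 0.692) for the microfibril protein Fbn1. Lum and Postn were below the filter.

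**Figure D3:**
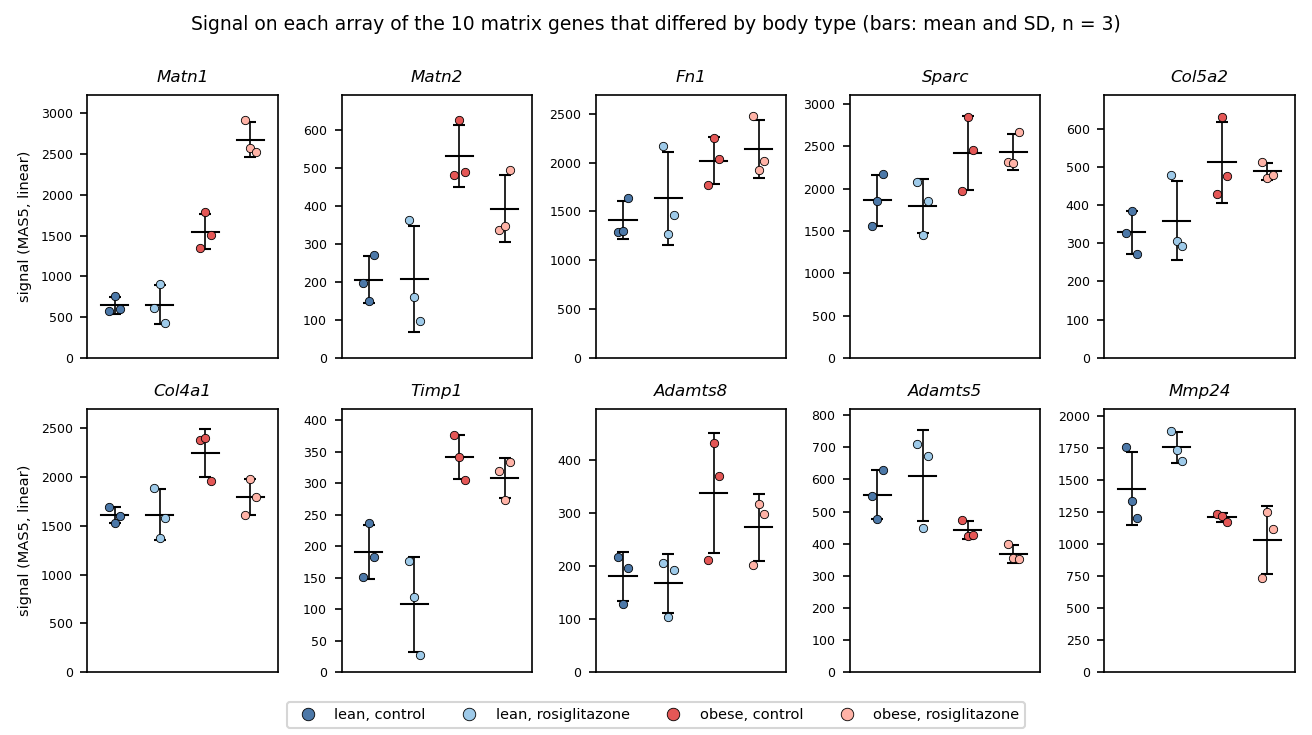
Signal on each of the 12 arrays for the 10 matrix genes that passed for body type over both diets, on linear axes that start at 0; horizontal bars are group means and vertical bars the SD of 3 rats. The obese groups lie above the lean groups for Matn1 and Timp1 without overlap, and within each diet below them without overlap for Adamts5.

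Of the fibril-forming collagens, 1 of 7 measured genes passed over both diets. Col5a2 signals were 328, 385 and 272 in lean rats on the control diet and 478, 306 and 292 in lean rats on rosiglitazone, against 429, 631 and 476 in obese rats on the control diet and 513, 471 and 479.5 in obese rats on rosiglitazone. Obese arrays were above lean ones on the control diet, and lean array 1 on rosiglitazone lay among the obese arrays. Col5a2 codes for a type V chain, which takes part in starting type I fibrils. Its difference was 0.54 (SE 0.14, adjusted p = 0.0194), and its second probe set gave 0.34 (SE 0.14, adjusted p = 0.119). The call was lost without obese control 2 (0.46, adjusted p = 0.055).

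Chains of types I and III, the bulk fibrillar collagens, did not pass for body type. Col1a1 signals were 459, 540.0 and 447 in lean rats on the control diet and 429, 273 and 253 in lean rats on rosiglitazone, against 563, 971 and 588 in obese rats on the control diet and 327, 438 and 421 in obese rats on rosiglitazone. Obese control rats were above lean control rats without overlap, and on rosiglitazone the body types overlapped. The difference over both diets was 0.41 (95% interval 0.07 to 0.75, adjusted p = 0.1). Col3a1 read 818, 1052 and 750.2 (lean, control diet), 972, 458 and 842 (lean, rosiglitazone), 934, 1687 and 1194 (obese, control diet) and 892, 813 and 997 (obese, rosiglitazone). Its groups overlapped on either diet, and the difference was 0.41 (95% interval 0.02 to 0.80, adjusted p = 0.159). Col1a2 read 584, 735 and 648 (lean, control diet), 491, 345 and 666 (lean, rosiglitazone), 477, 777 and 623 (obese, control diet) and 581, 586 and 538 (obese, rosiglitazone). Col1a2 codes for the other chain of type I collagen. Lean and obese overlapped again, with a difference of 0.07 (95% interval -0.25 to 0.39, adjusted p = 0.807). Second probe sets gave 0.06 (SE 0.18, adjusted p = 0.862) for Col1a1 and 0.15 (SE 0.16, adjusted p = 0.598) for Col1a2. Col27a1, Col11a1 and Col5a1 differed by 0.28, 0.32 and -0.17, and none of them passed.

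In the basement membrane group, Col4a1 was the gene of 6 measured that passed. Col4a1 signals were 1696, 1529.5 and 1603 in lean rats on the control diet and 1891, 1377 and 1581 in lean rats on rosiglitazone, against 2378, 2399.9 and 1965 in obese rats on the control diet and 1613, 1979 and 1794 in obese rats on rosiglitazone. On the control diet all obese arrays were above all lean arrays, and on rosiglitazone lean array 1 lay among the obese ones. Col4a1 codes for the alpha 1 chain of the widespread type IV network and differed by 0.47 (SE 0.12, adjusted p = 0.0427) on the control diet and 0.32 (SE 0.09, adjusted p = 0.0263) over both. The second Col4a1 probe set gave 0.19 (SE 0.12, adjusted p = 0.336). The control-diet call was lost without lean control 1, lean control 2, lean control 3, obese control 1, obese control 2 or obese rosiglitazone 3 (0.42 to 0.51, adjusted p = 0.0601 to 0.17) and the call over both diets without lean control 2, lean rosiglitazone 2, obese control 1, obese control 2, obese rosiglitazone 2 or obese rosiglitazone 3 (0.26 to 0.31, adjusted p = 0.0541 to 0.0702). Median centring of the arrays also ended both calls (0.42, adjusted p = 0.132 on the control diet; 0.29, adjusted p = 0.0768 over both), as did plain eBayes settings (0.47, adjusted p = 0.0911 and 0.32, adjusted p = 0.0557). On the control diet the call was lost too with no filter (0.47, adjusted p = 0.0671) and with the replicate number as a block (0.47, adjusted p = 0.0507). Nor did it hold within either cre class, where 1 body type has a single control-diet array.

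Col4a2, which codes for the partner chain and shares the start region shown above, did not pass. Col4a2 signals were 1302, 1341 and 1940.4 in lean rats on the control diet and 1288, 1217 and 1111 in lean rats on rosiglitazone, against 1564, 1795 and 1431 in obese rats on the control diet and 1242, 1119 and 1279 in obese rats on rosiglitazone. The body types overlapped on either diet, with lean control 3 the highest of all arrays, and the difference was 0.05 (95% interval -0.17 to 0.26, adjusted p = 0.813). The log2 ratio of Col4a1 to Col4a2 signal, from the brightest probe set of each, was 0.27 higher in obese rats. This comparison was chosen after the values were seen, so a p-value would not be a test of it and none is given. Lean control 3 had the only ratio below 0, at -0.27. Col4a5 read 2345, 2231 and 2077 (lean, control diet), 2575, 2232 and 2210.0 (lean, rosiglitazone), 2547, 2625 and 2308 (obese, control diet) and 2099.7, 2259.7 and 2245 (obese, rosiglitazone). Col4a5 codes for a chain of the mature glomerular network, its body types overlapped, and it differed by 0.04 (95% interval -0.10 to 0.18, adjusted p = 0.724). Col4a4 read 203, 54.2 and 208 (lean, control diet), 324, 135 and 204 (lean, rosiglitazone), 228, 244 and 178 (obese, control diet) and 177, 233 and 162 (obese, rosiglitazone). Lean control 2 was far below the other arrays, the remaining values overlapped, and the difference was 0.24 (95% interval -0.36 to 0.85, adjusted p = 0.631). Col18a1 read 2105, 2371 and 2544 (lean, control diet), 2212, 2440.4 and 2127 (lean, rosiglitazone), 2389.6, 2025 and 2104 (obese, control diet) and 3048, 2400.0 and 2021 (obese, rosiglitazone). Col18a1, a basement membrane collagen that is the source of endostatin, overlapped throughout at 0.01 (95% interval -0.19 to 0.21, adjusted p = 0.968). Its second probe set did pass at 0.18 (SE 0.06, adjusted p = 0.039). Col15a1 differed by 0.01, and Col4a6 was below the filter. Col4a3, the remaining chain of the glomerular network, was not among the genes the rule found.

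No laminin chain or nidogen passed among 9 measured. Lamb2 codes for the beta 2 chain of the glomerular basement membrane. Lamb2 signals were 1623, 1458 and 1571 in lean rats on the control diet and 1359.8, 1404 and 1291 in lean rats on rosiglitazone, against 1217, 1330.1 and 1395 in obese rats on the control diet and 1880.3, 1569.7 and 1498 in obese rats on rosiglitazone. Obese rats were below lean rats on the control diet and above them on rosiglitazone, each without overlap, and the difference over both diets was 0.02 (95% interval -0.13 to 0.18, adjusted p = 0.889). Lamc1 read 920.4, 904 and 973 (lean, control diet), 946, 831 and 855 (lean, rosiglitazone), 961, 1163 and 989.8 (obese, control diet) and 1118, 1038 and 970.3 (obese, rosiglitazone). The gamma 1 chain is shared by most laminins. Its body types overlapped on the control diet and not on rosiglitazone, and it differed by 0.20 (95% interval 0.04 to 0.36, adjusted p = 0.0975). Lama5 read 757, 789 and 908 (lean, control diet), 635, 759.7 and 965 (lean, rosiglitazone), 621, 939 and 766 (obese, control diet) and 983, 583 and 672 (obese, rosiglitazone). Lama5, the alpha chain of mature kidney laminin, overlapped on either diet and differed by -0.09 (95% interval -0.39 to 0.21, adjusted p = 0.73). The others ran from -0.11 for Nid1 to 0.66 for Lamb3, which had an adjusted p of 0.0536. Lama2 and Lama4 were below the filter.

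The other collagens had 11 measured genes of 23, and none passed. All 11 differences over both diets were above 0, from 0.07 for Col23a1 to 0.49 for Col9a2, where 10195 of the 18625 probe sets were above 0. Col6a1 signals were 386, 285 and 454 in lean rats on the control diet and 395, 349 and 636 in lean rats on rosiglitazone, against 443, 593 and 555 in obese rats on the control diet and 426, 434 and 534 in obese rats on rosiglitazone. Col6a1 codes for a chain of the beaded type VI filaments around cells. The groups overlapped on either diet, and the difference was 0.28 (95% interval -0.05 to 0.61, adjusted p = 0.267).

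Among metalloproteinases, 1 of 6 measured genes passed and was lower in obese rats. Mmp24 signals were 1755, 1338 and 1204 in lean rats on the control diet and 1882, 1733 and 1648 in lean rats on rosiglitazone, against 1235, 1216 and 1172 in obese rats on the control diet and 734, 1247 and 1116 in obese rats on rosiglitazone. On rosiglitazone all obese arrays were below all lean arrays, and on the control diet they overlapped. Mmp24 codes for a membrane-anchored enzyme, MT5-MMP. It fell by 0.51 over both diets (SE 0.12, adjusted p = 0.0124) and by 0.79 on rosiglitazone (SE 0.17, adjusted p = 0.0171). With the cre class as a covariate the Mmp24 difference over both diets was -0.42, adjusted p = 0.07, and that on rosiglitazone was -0.67, adjusted p = 0.0727. The call on rosiglitazone was lost without lean rosiglitazone 1 or obese rosiglitazone 1 (-0.74 to -0.56, adjusted p = 0.0518 to 0.064). Its further probe sets gave -0.21 (SE 0.09, adjusted p = 0.12) and 0.06 (SE 0.17, adjusted p = 0.857).

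The gelatinase gene Mmp2 did not pass. Mmp2 read 271, 276 and 331 (lean, control diet), 250.2, 180.3 and 237 (lean, rosiglitazone), 225, 448 and 269 (obese, control diet) and 267, 241 and 232 (obese, rosiglitazone). Obese control 2 was the highest array, the groups overlapped, and the difference was 0.10 (95% interval -0.24 to 0.43, adjusted p = 0.739). Mmp9, the other gelatinase, was below the filter with group mean signals of 27.9, 12.1, 32.0 and 6.16 in the order lean control, lean rosiglitazone, obese control and obese rosiglitazone. Mmp14, which activates pro-Mmp2 at the cell surface, differed by 0.20 (adjusted p = 0.463). In all, 11 of the 17 metalloproteinase genes were below the filter.

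Timp1, an inhibitor that is inducible in injured tissue, was higher in obese rats. Timp1 signals were 152, 237 and 184 in lean rats on the control diet and 176, 119.7 and 27.0 in lean rats on rosiglitazone, against 377, 343 and 306 in obese rats on the control diet and 320.4, 273 and 333 in obese rats on rosiglitazone. Every obese array was above every lean array on either diet, and lean rosiglitazone 3 was the lowest. The difference was 1.22 (SE 0.28, adjusted p = 0.0111) over both diets, 1.64 (SE 0.40, adjusted p = 0.0321) on rosiglitazone and 0.81 (SE 0.40, adjusted p = 0.299) on the control diet. On rosiglitazone the call was lost without obese rosiglitazone 1, obese rosiglitazone 2 or obese rosiglitazone 3 (1.59 to 1.72, adjusted p = 0.0752 to 0.0976), and with quantile normalization (1.68, adjusted p = 0.0557), median centring (1.64, adjusted p = 0.0687), plain eBayes settings (1.64, adjusted p = 0.0551) or only the groups compared in the fit (1.64, adjusted p = 0.103). The difference without lean rosiglitazone 3 was 1.01, adjusted p = 0.0211. Over both diets it was 0.91, adjusted p = 0.00149 without that array.

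The other inhibitors did not pass by their brightest probe sets. Timp2 read 735, 672 and 873 (lean, control diet), 754, 608 and 651 (lean, rosiglitazone), 802, 981 and 930.3 (obese, control diet) and 716, 749 and 747 (obese, rosiglitazone). Timp2, which also takes part in Mmp2 activation, overlapped on either diet and differed by 0.19 (95% interval 0.00 to 0.38, adjusted p = 0.17). Timp3 read 7808, 7211 and 6998 (lean, control diet), 6987, 7307 and 6801 (lean, rosiglitazone), 6916, 5682 and 6284 (obese, control diet) and 8466, 6569 and 6999 (obese, rosiglitazone). Timp3, an inhibitor bound to the matrix, had obese control arrays below all lean control arrays, overlapped on rosiglitazone, and differed by -0.08 (95% interval -0.24 to 0.07, adjusted p = 0.484). Of its further probe sets, 1 passed at 0.28 (SE 0.08, adjusted p = 0.0315), opposite in sign to the brightest one. Timp4 differed by 0.15.

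ADAMTS genes included 1 that was higher and 1 that was lower among 9 measured. Adamts5 signals were 549.6, 478 and 630.5 in lean rats on the control diet and 711, 449 and 674 in lean rats on rosiglitazone, against 474, 423 and 428 in obese rats on the control diet and 400.3, 354 and 351 in obese rats on rosiglitazone. Every obese array was below every lean array on the same diet. Adamts5 codes for an aggrecanase that also cuts versican, and it fell by 0.49 over both diets (SE 0.12, adjusted p = 0.0123). On rosiglitazone the difference was -0.68 (SE 0.17, adjusted p = 0.0311), and the call there was lost without lean rosiglitazone 1, lean rosiglitazone 3, obese rosiglitazone 1, obese rosiglitazone 2 or obese rosiglitazone 3 (-0.74 to -0.56, adjusted p = 0.0582 to 0.116), and with only the groups compared in the fit (-0.68, adjusted p = 0.075). Its dimmer probe set gave 0.16 (SE 0.20, adjusted p = 0.656). Adamts8 read 217, 129 and 196 (lean, control diet), 207, 104 and 192 (lean, rosiglitazone), 212, 432 and 371 (obese, control diet) and 202, 319 and 299.6 (obese, rosiglitazone). The body types overlapped through obese array 1 on either diet. Adamts8 codes for a further member of the family and differed by 0.75 (SE 0.21, adjusted p = 0.0301). It was 0.51, adjusted p = 0.169 with the cre class as a covariate, and the call was lost without lean control 2, lean rosiglitazone 2, obese control 2, obese control 3, obese rosiglitazone 2 or obese rosiglitazone 3 (0.61 to 0.72, adjusted p = 0.066 to 0.0825). Adamts10, Adamts1 and Adamts9 differed by 0.40, 0.36 and -0.19 and did not pass.

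**Figure D4:**
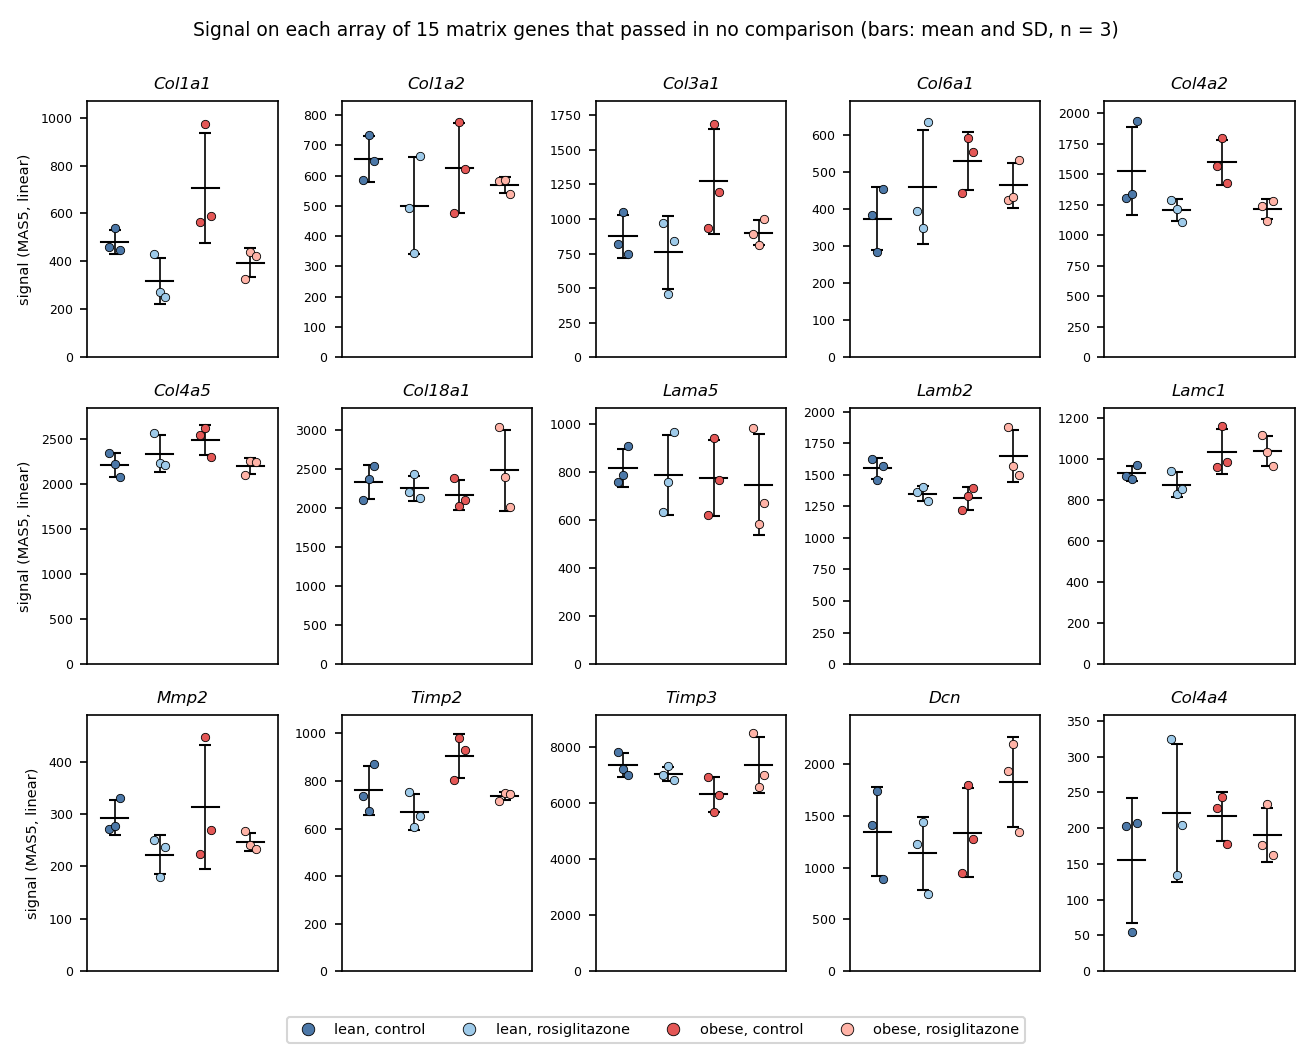
Signal on each of the 12 arrays for 15 matrix genes, on linear axes that start at 0. Bars are group means and SD of 3 rats. The genes were to be described whatever their values, and the brightest probe sets, which are shown, passed in no comparison. Over both diets a further probe set passed for Col18a1 and for Timp3. Lamb2 is lower on the drug in lean rats and higher in obese rats, a difference of effects that did not pass. Col1a1 and Col4a2 are lower on the drug in either body type. For Col4a2 the gap in lean rats is narrow, and lean control 3 is the highest array.

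No matrix gene passed limma's test for rosiglitazone. In lean rats 0 of 60 passed, with 5 at an unadjusted p under 0.05, where 0.00537% of all probe sets passed and 4.79% had such an unadjusted p. In obese rats 0 of 60 passed, with 9 at an unadjusted p under 0.05, where 0.0698% passed and 4.92% had such an unadjusted p. Averaged over both body types, 0 passed, with 8 at an unadjusted p under 0.05 (0.0591% passed and 5.08% of all probe sets). The median log2 difference of the 60 genes was -0.07 with lean body type, -0.10 with obese body type and -0.05 averaged, against 0.00 over all probe sets in each case. In lean rats 21 of 60 were above 0, and in obese rats 17. These medians moved with single arrays. Without lean rosiglitazone 2 the lean median was 0.01 with 30 above 0, and without obese control 2 the obese median was -0.04 with 29 above 0. Without obese rosiglitazone 2 the obese median was -0.04 with 28 above 0. Groups did not overlap for 1 gene higher and 5 lower on the drug in lean rats (4.1% and 4.44% of all probe sets) and for 2 higher and 8 lower in obese rats (5.56% and 6.34%).

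Col1a1 and Col4a2 were lower on rosiglitazone than on the control diet without overlap in either body type, which held for 2 of 60 genes, or 3.33%, and for 0.408% of all probe sets. The Col1a1 difference was -0.61 in lean and -0.78 in obese rats, and -0.69 (95% interval -1.03 to -0.36, adjusted p = 0.274) over both. For Col4a2 the values were -0.32, -0.39 and -0.35 (95% interval -0.57 to -0.14, adjusted p = 0.582). Neither passed the test over all probe sets. The Col4a2 gap in lean rats was narrow, between lean control 1 at 1302 and lean rosiglitazone 1 at 1288. Lean control 3 was far above the other lean arrays at 1940, and the lean Col4a2 difference without it is not given here. The Col1a1 values are those of its brightest probe set, and the drug difference of its second one is not given here. Nid1, which links laminin to type IV collagen, was lower on the drug without overlap in lean rats at -0.43 (95% interval -0.66 to -0.19, adjusted p = 0.706), against -0.10 (95% interval -0.33 to 0.14, adjusted p = 0.999) in obese rats. Matn1 in obese rats was higher on the drug without overlap, at 0.79 (95% interval 0.34 to 1.23, adjusted p = 0.394), and it passed when only the groups compared entered the fit (adjusted p = 0.0391). Timp1 in lean rats differed by -0.97 (95% interval -1.83 to -0.11, adjusted p = 0.981), and by -0.34 (adjusted p = 0.951) without lean rosiglitazone 3, its lowest array.

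**Figure D5:**
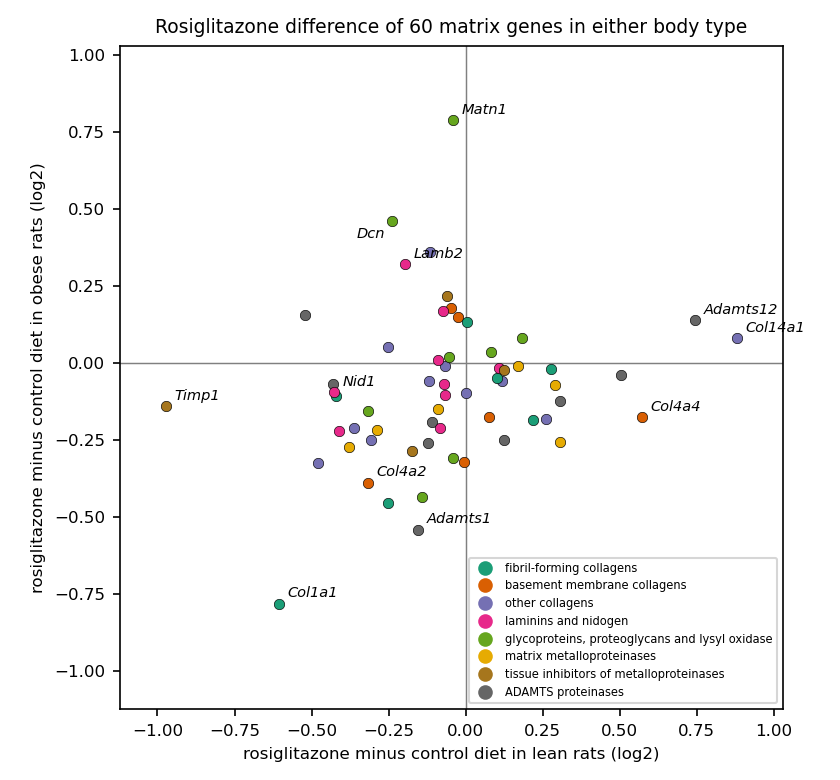
Rosiglitazone minus control diet log2 difference of each of the 60 matrix genes in lean rats (x axis) and obese rats (y axis), coloured by role; none passed the test. Col1a1 lies at the lower left (-0.61 and -0.78), Matn1 at the top (-0.04 and 0.79), Timp1 at the far left (-0.97 and -0.14; -0.34 in lean rats without lean rosiglitazone 3).

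The drug effect in obese rats minus that in lean rats was tested directly, and limma called 0 of 60 genes, with 4 at an unadjusted p under 0.05, where 0% of all probe sets passed and 4.31% had such an unadjusted p. The 4 were Matn1 (0.83), Adamts10 (0.68), Lamb2 (0.52) and Mmp24 (-0.56). For no matrix gene was the body type difference shown to depend on the drug.

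Genes that process, bind or signal through the matrix, from a list that held no member, had 45 of 53 above the filter. Over both diets 14 were higher and 2 lower in obese rats, where 14.3% of all probe sets passed. The higher ones included the matricellular genes Ccn1 (1.73, adjusted p = 1.57e-05) and Ccn2 (0.42, adjusted p = 0.00751), osteopontin Spp1 (0.79, adjusted p = 0.00216), the small proteoglycans Ogn (1.21, adjusted p = 0.000151) and Aspn (0.82, adjusted p = 0.00606), the integrin chain Itgav (0.73, adjusted p = 0.000428), the growth factor Tgfb1 (0.55, adjusted p = 0.0161) and the plasminogen activator Plat (0.63, adjusted p = 0.0496). Thbs2, Emilin1, Efemp1, Tgm2, Itga3 and Ddr1 were the others. The lower ones were Tgfbi (-0.54, adjusted p = 9.25e-05), an integrin-binding matrix protein, and Agrn (-0.43, adjusted p = 0.0115), a heparan sulphate proteoglycan of basement membranes. Collagen-processing genes did not pass, with Serpinh1 (0.24, adjusted p = 0.0958), the collagen chaperone, and Loxl1 (0.83, adjusted p = 0.09) as examples. On the control diet 5 were higher and 2 lower, on rosiglitazone 7 and 1, and the drug comparisons called none. The list's median log2 difference over both diets was 0.20, and it was chosen with earlier results of these data known.

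Markers of the other cells that make or carry matrix were read on the same arrays. Of 11 fibroblast and pericyte markers 7 were measured and none passed over both diets, with summed signals of 6382 to 7068 (lean, control diet), 5382 to 6679 (lean, rosiglitazone), 6705 to 8151 (obese, control diet) and 6739 to 7339.9 (obese, rosiglitazone). Of 7 smooth muscle markers 5 were measured and 1 passed, Acta2 (0.41, adjusted p = 0.0108), with sums of 3755 to 3939 (lean, control diet), 3538 to 4221 (lean, rosiglitazone), 4203 to 5304 (obese, control diet) and 3910.5 to 4571 (obese, rosiglitazone). Of 10 leukocyte markers 7 were measured and 1 passed, Lyz2 (0.46, adjusted p = 0.0278), with sums of 4495 to 6006 (lean, control diet), 5049 to 5609 (lean, rosiglitazone), 6362 to 9599 (obese, control diet) and 5427 to 6672 (obese, rosiglitazone). Of 6 podocyte markers 5 were measured and 1 passed, Wt1 (0.59, adjusted p = 0.0341), with sums of 2110.2 to 4794 (lean, control diet), 2914 to 4302 (lean, rosiglitazone), 2947 to 6409 (obese, control diet) and 3557 to 5652 (obese, rosiglitazone). All 3 mesangial markers were measured and none passed, with sums of 793 to 1046 (lean, control diet), 820.1 to 1093 (lean, rosiglitazone), 919 to 1364 (obese, control diet) and 975 to 1172 (obese, rosiglitazone). All 9 endothelial markers were measured and none passed, with sums of 7583 to 8434 (lean, control diet), 7677 to 8389 (lean, rosiglitazone), 5591 to 10189.9 (obese, control diet) and 9830.2 to 11127 (obese, rosiglitazone). Fat cell markers had 9 of 11 measured and 7 lower in obese rats, with sums of 6559.5 to 9151 (lean, control diet), 14458 to 25872 (lean, rosiglitazone), 3806 to 4526 (obese, control diet) and 7154 to 8609 (obese, rosiglitazone). Both red blood cell markers passed higher in obese rats, with sums of 4944 to 9735 (lean, control diet), 2349 to 5669.7 (lean, rosiglitazone), 5564 to 8087 (obese, control diet) and 7419 to 12733 (obese, rosiglitazone), and of 5 urothelial markers 1, Krt19, was lower (-1.57, adjusted p = 4.7e-05), with sums of 1900.2 to 4105 (lean, control diet), 2261 to 3545 (lean, rosiglitazone), 1255 to 2004 (obese, control diet) and 1429.7 to 2666 (obese, rosiglitazone). No marker was at 0 on any array, but some were very low, such as Ucp1 at 32.8, 6.87 and 4.11 in obese control rats. A signal above 0 does not show that a cell type was present. The part of any of these cells in the matrix gene differences was not tested.

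Within the 7 arrays of the lower cre class, which hold 1 lean array per diet, all 10 genes kept their direction over both diets. The differences above 0 were those of Matn1 (2.00), Timp1 (1.84), Matn2 (1.40), Col5a2 (0.84), Adamts8 (0.71), Fn1 (0.46), Sparc (0.33) and Col4a1 (0.31). Those below 0 were of Adamts5 (-0.70) and Mmp24 (-0.36). With 1 lean array per diet, only the sizes are given here, and other members are not listed. The 5 arrays of the higher class hold no obese rosiglitazone array and give no value over both diets.

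The 35 genes below the filter were not tested. They were Adamts6, Adamts16, Adamts19, Col2a1, Col4a6, Col5a3, Col6a5, Col7a1, Col8a1, Col9a1, Col9a3, Col10a1, Col11a2, Col13a1, Col17a1, Col19a1, Col20a1, Col22a1, Col24a1, Col25a1, Lama2, Lama4, Lum, Mmp3, Mmp7, Mmp8, Mmp9, Mmp10, Mmp11, Mmp12, Mmp13, Mmp16, Mmp19, Mmp28 and Postn. Their group mean signals ran from 6.16 for Mmp9 to 206 for Col2a1, and the highest value on a single array was 393 for Lama2.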

How the data were processed

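Kidney RNA of 12 rats, 1 array per rat as the labels list them, was read on Affymetrix rat expression arrays; that the arrays come from separate rats is taken from the study design. Values are the authors' deposited MAS5 signals, a linear intensity per probe set, per the submitters' processing notes; for the scaling target and software version, these sources name neither, and the trimmed mean of each array was computed from the values. MAS5 subtracts mismatch probes, which makes low signals noisy.

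Signals were converted to log2(signal + 16), which understates differences of low signals, and probe sets with a mean at or above the 40th percentile (7.321) were kept, 18625 in all, without 57 control probe sets. Of the 31042 others, 20826 have 1 gene symbol, 436 several and 9780 none. limma 3.58.1 in R 4.3.3 (statmod 1.5.0) fitted 4 group means to 12 arrays with 8 residual degrees of freedom and an eBayes step with trend and robust settings. P-values for 7 comparisons were adjusted by Benjamini-Hochberg over all probe sets, and genes were called at 0.05. The script was tested on simulated data.

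The members, the related and marker lists and the genes to describe array by array (every called member plus a fixed list of 21 symbols) were chosen with earlier results of these data known. Alternatives were the offset, filter, scaling, eBayes settings, groups in the fit, cre class, replicate number as a block, and each array left out. For same-numbered arrays of different groups, 18 correlations of deviations ran from -0.18 to 0.18 and 4 were over 0.1. Different-numbered arrays gave -0.22 to 0.21. All correlations among arrays numbered 3 were positive, from 0.06 to 0.18. Every array numbered 3 is in the lower cre class, so for these the number and the class cannot be told apart. The labels do not say whether the numbers pair rats, and these values cannot decide it.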

Additional observations from a re-analysis of the deposited data

Results flagged for a closer look

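Lamb2 stood apart because its drug and control groups, which are different rats, did not overlap, with opposite directions in lean and obese rats. On rosiglitazone its signal was below the control diet in lean rats (-0.20) and above it in obese rats (0.32), each without overlap. The same arrays put obese rats below lean rats on the control diet (-0.24) and above them on the drug (0.28). The difference between the effects, which is the same number for both views, was 0.52 on the log2 scale (SE 0.14). Tested directly by limma, it had an unadjusted p of 0.00302 and an adjusted p of 0.987, and did not pass. The share of all probe sets with such a crossing is not given here.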

How the results depend on the processing

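The 3 genes called for body type on the control diet became 1 with no filter, with median centring, with eBayes without trend and robust settings and with the replicate number as a block, and 0 within the higher cre class, and ranged from 1 to 4 with an array left out (1 without lean control 1 or 2, obese control 1 or 2, or obese rosiglitazone 3). The 4 called on rosiglitazone became 2 when only the groups compared entered the fit and ranged from 1 to 5 with an array left out (1 without obese rosiglitazone 1 and 2 without obese rosiglitazone 3). The 10 called over both diets ranged from 6 (without obese control 2) to 13. The block changed no other count by over 1.5 times; it added Dcn on rosiglitazone and Lamb3 over both diets. With plain eBayes settings the 10 became 8, without Col4a1 and Sparc. Of the 10, Matn1, Matn2, Timp1 and Adamts5 passed over both diets under each alternative that measured them; Adamts8, Matn2 and Timp1 lie below a 60th percentile filter. Within the lower cre class each lean group is 1 array, so no drug count is given there for lean rats. For Timp1 the lean drug array of that class is lean rosiglitazone 3, its lowest. The Timp1 drug difference in lean rats was -0.97 with all arrays and -0.34 without that array. In obese rats the drug count became 1 (Matn1) with only the groups compared. Over both diets, differences that did not pass changed sign: with the cre class as a covariate for Col1a2 (-0.13), Col4a2 (-0.024) and Mmp2 (-0.071); within the lower class for Col1a2 (-0.062), Col4a2 (-0.075), Col4a4 (-0.049), Col6a1 (-0.059) and Col18a1 (-0.047); with median centring for Col18a1 (-0.016) and Lamb2 (-0.0030); and with quantile normalization for Timp3 (0.059). With an array left out they spanned 0 for Col1a2 (-0.049 to 0.18), Col4a2 (-0.0058 to 0.14), Col4a4 (-0.036 to 0.39), Col18a1 (-0.070 to 0.077), Lamb2 (-0.028 to 0.053) and Mmp2 (-0.041 to 0.20). The causes were not tested. Comparisons over both diets or over both body types could not be fitted within the higher cre class, which holds no obese rosiglitazone array, and those over all groups have no fit with only the groups compared. Low MAS5 signals, such as those of Timp1 in lean rats, limit the precision of their log2 differences.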
